A study of Mus musculus with 3 samples.

Results

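The genes described here are 9 genes of sterol and fatty acid synthesis, taken by name from the count table: Hmgcs1, Idi1, Fdps, Fdft1, Sqle, Cyp51, Msmo1, Insig1 and Scd2, of 50507 genes listed. Each was read singly and as a summed level in every library. The study followed primary mouse embryonic fibroblasts of the BL6 wild type through the first days of reprogramming to pluripotency. All cells, controls included, carried lentiviruses with rtTA and a tet-inducible STEMCCA cassette of Oct4, Sox2, Klf4 and c-Myc, and were reprogrammed at passage 2. From day 0 on, the medium held DMEM, 10% FBS, 2 µg/mL doxycycline, 3 µM chiron, 0.25 µM Alk5i, 50 µg/mL ascorbic acid and LIF. The study counts the addition of this medium as day 0. Its fibroblast medium is listed with more serum and without doxycycline, these inhibitors or LIF. Day00 is therefore read here as the state before induction. Chiron inhibits the kinase GSK3, and Alk5i inhibits TGF-beta signalling. In the time course (Day00 to Day06) cells were replated without transfection and sampled daily from day 0 to day 6. In the screen, RNAiMAX carried a pool of siRNAs (40 nM) against 1 of 33 genes into the cells, and control cells were either mock transfected (Mock) or given a siRNA without a target (nt). They were then replated, induced and read at day 6 according to the methods of the study. The starting cells are a mixed primary culture transduced in bulk, and the labels do not say what share of them expressed the cassette.

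Cholesterol is built from acetyl-CoA through the mevalonate pathway, which ends in farnesyl diphosphate, and then through squalene, lanosterol and a chain of demethylations and reductions. When sterols in the endoplasmic reticulum are scarce, SREBP transcription factors are released and activate the genes of the whole chain, together with LDL uptake. Fatty acid synthesis and desaturation genes are activated in a related way by SREBP and LXR factors. Hmgcs1 makes HMG-CoA, Idi1 interconverts the isoprenoid units and Fdps joins them to farnesyl diphosphate. Fdft1 makes squalene, Sqle oxidises it, Cyp51 demethylates lanosterol and Msmo1 oxidises methyl groups of later sterol intermediates. Insig1 is not an enzyme but a membrane protein that holds SREBP in the endoplasmic reticulum when sterols are plentiful. Scd2 is a stearoyl-CoA desaturase, which makes monounsaturated fatty acids.

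In GENCODE vM21 on GRCm38, the assembly also called mm10, all 9 are protein-coding. Hmgcs1 lies at chr13:119690379-119708260 on the plus strand, Idi1 at chr13:8885501-8892451 (plus) and Fdps at chr3:89093588-89101959 (minus). Fdft1 lies at chr14:63145150-63179578 (minus), Sqle at chr15:59315077-59331192 (plus) and Cyp51 at chr5:4081145-4104746 (minus). Msmo1 lies at chr8:64718139-64733792 (minus), Insig1 at chr5:28071363-28078662 (plus) and Scd2 at chr19:44293674-44306864 (plus). The measured part is the 3′ end of the transcript. Within its last 500 bases, Idi1 has 4 copies in the annotation and Fdps has 8, so that counts of both may be split. A copy is here another gene whose transcript matched at 90% identity or more over at least 100 bases. The copies of Idi1 that the table lists held 214 counts in all against 905 for Idi1 itself. The copies of Fdps held 65 counts against 41 for Fdps. Fdft1 and Insig1 have 1 such copy each, and on the same strand exons of Fdps overlap Gm43738 and those of Scd2 overlap Mir5114. Gm43738 is itself among the 8 copies of Fdps. Exons of Fdft1 overlap Ctsb and exons of Cyp51 overlap Akap9 on the opposite strand, as exons of Idi1 do Gm48574 and those of Hmgcs1 do Gm48342, and the sources used here do not say whether counting used the strand.

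Promoters are shown for 3 members with called differences, since sterol genes are known for SREBP, NF-Y and Sp1 motifs near the start of transcription. RefSeq windows on GRCm38.p6, from 250 bases before to 50 bases after the start, were given for 5 of the 9 members (Hmgcs1, Idi1, Cyp51, Msmo1 and Insig1). Capitals mark matches on either strand to TCACNCCAC, the core of a sterol response element, to CCAAT, the NF-Y motif, or to GGGCGG, the Sp1 motif. The windows are chr13:119690101-119690400 (plus) for Hmgcs1, chr13:8885356-8885655 (plus) for Idi1 and chr8:64733529-64733828 (minus) for Msmo1, each written 5′ to 3′ along its gene.
Hmgcs1: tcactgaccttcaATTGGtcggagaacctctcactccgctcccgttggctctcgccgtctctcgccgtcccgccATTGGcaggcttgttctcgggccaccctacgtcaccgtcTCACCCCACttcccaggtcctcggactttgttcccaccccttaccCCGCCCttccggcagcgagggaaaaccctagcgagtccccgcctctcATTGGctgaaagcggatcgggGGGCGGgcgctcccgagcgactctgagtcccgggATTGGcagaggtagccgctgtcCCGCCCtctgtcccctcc
Idi1: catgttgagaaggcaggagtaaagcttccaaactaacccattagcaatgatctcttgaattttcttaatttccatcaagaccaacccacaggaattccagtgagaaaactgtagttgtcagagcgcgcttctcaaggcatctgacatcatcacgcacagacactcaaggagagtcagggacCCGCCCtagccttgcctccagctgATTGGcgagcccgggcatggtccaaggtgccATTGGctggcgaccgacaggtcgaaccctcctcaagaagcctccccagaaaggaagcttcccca
Msmo1: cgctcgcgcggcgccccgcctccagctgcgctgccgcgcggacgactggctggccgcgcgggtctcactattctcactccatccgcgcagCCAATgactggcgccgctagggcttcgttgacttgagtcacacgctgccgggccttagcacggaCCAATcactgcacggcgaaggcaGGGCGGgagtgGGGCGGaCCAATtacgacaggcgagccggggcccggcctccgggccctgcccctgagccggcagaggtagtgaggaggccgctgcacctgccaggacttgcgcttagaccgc
The sterol response core was found once, in the promoter of Hmgcs1, where it starts 137 bases before the start of transcription. It was present in 1.242% of 32851 promoters of the same length. CCAAT was present in all 5 member promoters, 3 times in Msmo1, 2 times in Idi1 and 4 times in Hmgcs1, and in 37.41% of all promoters. GGGCGG was also present in all 5, and in 35.66% of all promoters. These are matches of letters only.

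The count table holds UMI-corrected counts of 3′ ends from CEL-Seq2, a bulk library method here, and 127 libraries of 42 conditions were used. Every condition had 3 libraries, 1 in each of 3 sequenced pools, except Mock with 5 and siMtf1 with 2. Mock has 2 libraries of the same name in pool 1 and in pool 2, and the sources used here do not say whether these are separate cultures, so its n may overstate the number of independent samples. Totals ran from 29656 to 235292 counts per library. Levels are given as CPM, a gene's count divided by the library's total over tested genes after TMM scaling, times 1e+06. Of the 9 members, 6 passed the low-count filter that 3013 genes passed: Hmgcs1, Idi1, Fdft1, Cyp51, Msmo1 and Scd2. Sqle, Fdps and Insig1 did not and have levels but no test. The members had 10058 counts in all, of which Scd2 held 42.0% and Msmo1 23.5%, so the sum is mainly a readout of these genes. Cyp51 held 10.5%, Idi1 8.998%, Fdft1 4.70%, Hmgcs1 4.51%, Sqle 4.33%, Insig1 1.10% and Fdps 0.408%. The median library had 25 counts of Scd2, 15 of Msmo1, 7 of Cyp51, 5 of Idi1 and 3 each of Fdft1, Hmgcs1 and Sqle, which limits what could be detected for the last of these. The study describes its siRNA transfections as done 3 times over, and the labels do not say whether separate fibroblast preparations were used, so p-values measure the spread between these libraries. As a check of the culture, all 10 fibroblast markers fixed for this work, among them Col1a1 and Col3a1, had counts at Day00. The 3 endothelial markers had none there.

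The summed level of the 9 genes was highest at day 0 and was lower on every later day. The libraries of Day00 held 2607, 2710.3 and 2773 CPM, a mean of 2697 ± 83.7 (SD, n = 3). At Day01 the sum was 1307, 1368 and 1150.1 CPM, 47.3% of the Day00 mean. It was 1586 ± 40.3 at Day02 and 2056 ± 333 at Day03, then 1059 ± 194 at Day04, 1094 ± 118 at Day05 and 1329.9 ± 178 at Day06 (SD, n = 3 each). No library of a later day reached the lowest Day00 library. The second high point at Day03 was mainly in Scd2. Without it, the 8 other members summed to 1421 ± 69.3 CPM at Day00 and to between 542 and 775 CPM on the later days, of which Day03 was again the highest. The log2 ratio of mean sums, Day06 to Day00, was -1.02 with Scd2 and -1.39 without it. In bulk RNA, fewer cells that express a gene and less of its RNA per cell cannot be told apart. Nor can induction of the cassette, the change of medium and time in culture, which all go with each comparison with Day00.

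**Figure D1:**
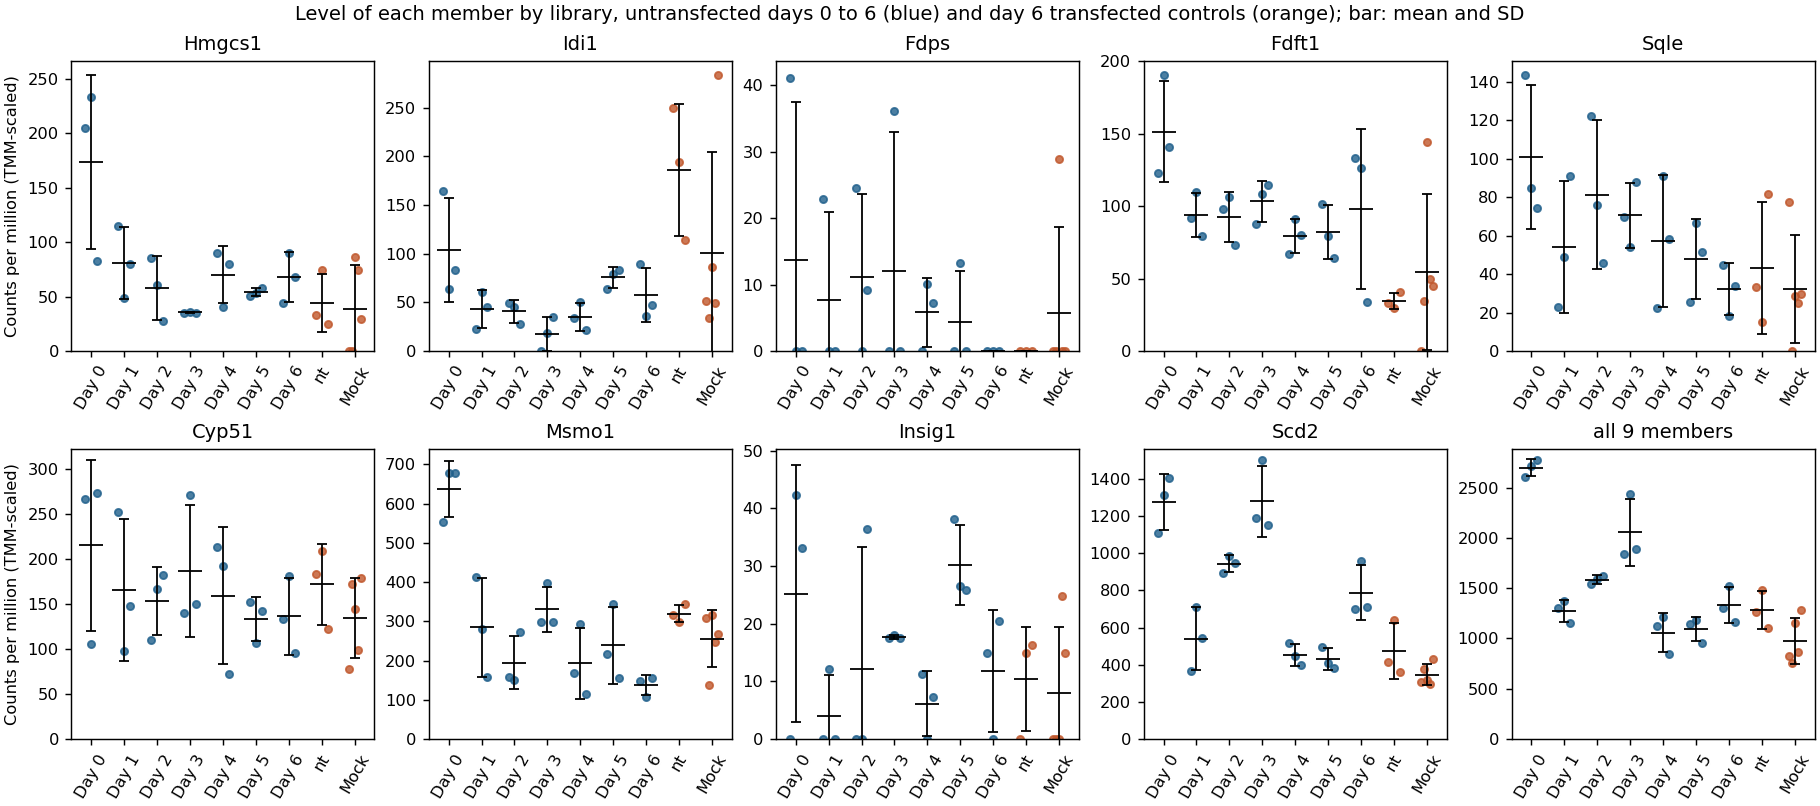
Level of each member in TMM-scaled CPM in each library of the time course (blue) and of the day 6 transfected controls (orange), with mean and SD as black bars and a panel for the sum. The sum is highest at day 0, from 2607 to 2773 CPM, Scd2 has a second high point at day 3 and Idi1 is high in nt.

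Msmo1 fell at once and stayed low. Its Day00 libraries held 554, 678 and 679 CPM, from 27, 32 and 82 counts. At Day01 they held 413, 281 and 159 CPM, and at Day06 148, 108 and 157 CPM, from 10, 6 and 23 counts. Every library of every later day was below every Day00 library. The fitted log2 fold change against Day00 was -1.33 ± 0.27 (SE) at Day01 (edgeR quasi-likelihood test, Benjamini-Hochberg adjusted p = 8.82e-05), -1.65 ± 0.27 at Day02 (adjusted p = 3.32e-07) and -0.99 ± 0.26 at Day03 (adjusted p = 0.00287). It was -1.81 ± 0.26 at Day04, -1.54 ± 0.26 at Day05 and -2.14 ± 0.29 at Day06 (adjusted p = 1.17e-10 at Day06). The Day01 call was lost in 2 of 8 alternatives and the Day03 call in 3 of 8, both with limma and without pool 3 (-0.99 and -0.88). From Day03 to Day04 it fell by 0.82 on the log2 scale (SE 0.29, adjusted p = 0.0463), a step that lost its call in 6 of 8 alternatives. At Day06 its mean was 21.6% of that at Day00.

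Scd2 fell, returned and fell again. It held 1108, 1313 and 1407 CPM at Day00, then 367, 709 and 547 CPM at Day01. At Day03 it was back at 1189, 1499.6 and 1152 CPM, and at Day04 it held 516, 445 and 399 CPM. The libraries of Day03 overlapped those of Day00, and those of Day01, Day04 and Day05 lay below both. Against Day00, the log2 fold change was -1.24 ± 0.21 at Day01 (edgeR, adjusted p = 2.60e-06), -0.06 ± 0.19 at Day03 (adjusted p = 0.890), -1.56 ± 0.21 at Day04 (adjusted p = 7.35e-11), -1.63 ± 0.21 at Day05 (adjusted p = 1.62e-11) and -0.76 ± 0.20 at Day06 (adjusted p = 0.00173). The Day06 call was lost in 4 of 9 alternatives, among them without pool 3 (-0.65). Among the daily steps, Scd2 rose from Day01 to Day02 by 0.75 ± 0.22 (adjusted p = 0.0207), fell from Day03 to Day04 (log2 fold change -1.503 ± 0.21, adjusted p = 1.52e-09) and rose from Day05 to Day06 by 0.87 ± 0.22 (adjusted p = 0.00385). The rise to Day02 lost its call in 7 of 8 alternatives and the rise to Day06 in 5 of 8, while the fall from Day03 to Day04 kept its call in all 8.

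Hmgcs1, at the head of the pathway, held 205, 233 and 82.8 CPM at Day00 and 35.0, 36.1 and 35.2 CPM at Day03, from 2, 2 and 4 counts. Its log2 fold change against Day00 was -2.04 ± 0.59 at Day03 (edgeR, adjusted p = 0.0104) and -1.44 ± 0.51 at Day05 (adjusted p = 0.0214). The Day03 call was lost in 3 of 8 alternatives and the Day05 call in 4 of 8, both without pool 1 (-1.83 and -1.15) and without pool 2 (-1.76 and -1.02). At Day06 the fold change of Hmgcs1 was -1.14 ± 0.51 (adjusted p = 0.0976). Day00 and Day06 overlapped for this gene. Idi1 held 164, 63.5 and 82.8 CPM at Day00 and 0, 18.1 and 35.2 CPM at Day03, from 0, 1 and 4 counts. That difference had a log2 fold change of -2.08 ± 0.70 (adjusted p = 0.0340). The call was lost in 5 of 8 alternatives, and the value was -1.32 without pool 1 and -3.43 without pool 3. At Day06 that of Idi1 was -0.79 ± 0.56 (adjusted p = 0.334). Fdps had 2 counts in the 3 Day00 libraries and 0 at Day06, where 3 counts over the group would be 11.1 CPM, so no change in it was detectable at this depth.

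Fdft1 held 123.2, 191 and 141 CPM at Day00 and 134, 127 and 34.1 CPM at Day06, which overlapped, while on the 5 days between all its libraries were below those of Day00. Its log2 fold change at Day06 was -0.84 ± 0.49 (edgeR, adjusted p = 0.231). Cyp51 held 267, 106 and 273 CPM at Day00 and 134, 181 and 95.4 CPM at Day06. Its log2 fold change there was -0.87 ± 0.40 (adjusted p = 0.104), and the pools did not go one way: the level was lower in pools 1 and 3 and higher in pool 2. Sqle had a mean of 101 ± 37.4 CPM at Day00 and 32.2 ± 13.3 CPM at Day06 (SD, n = 3), and these libraries did not overlap. Insig1 had 6 counts in all at Day00, 1 at Day01 and 4 at Day06, too few to order the days.

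By the test, 2 of the 6 tested members differed between Day06 and Day00, both lower, where 22.2% of all 3013 genes differed. The same test called 2 members at Day01 against Day00 (9.89% of all genes), 1 at Day02 (11.6%), 3 at Day03 (10.9%), 2 at Day04 (18.7%) and 3 at Day05 (31.9%). All of these were lower than at Day00. These comparisons share the Day00 libraries and are not independent of each other. In each of them, all 6 members had a fitted value under 0. Their median log2 fold change was -1.02 at Day01, where the median of all tested genes was -0.01, and -0.86 at Day06, where that of all genes was 0.05. The members were chosen with earlier results of these data known, so the shared direction and these medians are a description and not a test. The low-count filter, set by condition, can also pass a gene on a few high libraries, such as those of Day00. Over the 7 days together, 3 members differed (Hmgcs1, Msmo1 and Scd2), where 42.5% of all genes did. Hmgcs1 passed narrowly (adjusted p = 0.0488) and lost the call in 5 of 8 alternatives. Among daily steps after Day01, 1 member was called from Day01 to Day02 (4.81% of all genes), 2 from Day03 to Day04 (11.9%) and 1 from Day05 to Day06 (7.87%). With RLE size factors in place of TMM, the median of all genes at Day06 against Day00 moved from 0.05 to -0.11, the share of called genes that were higher went from 48.1% to 34.7%, and 4 members were called, with Cyp51 and Hmgcs1 added.

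**Figure D2:**
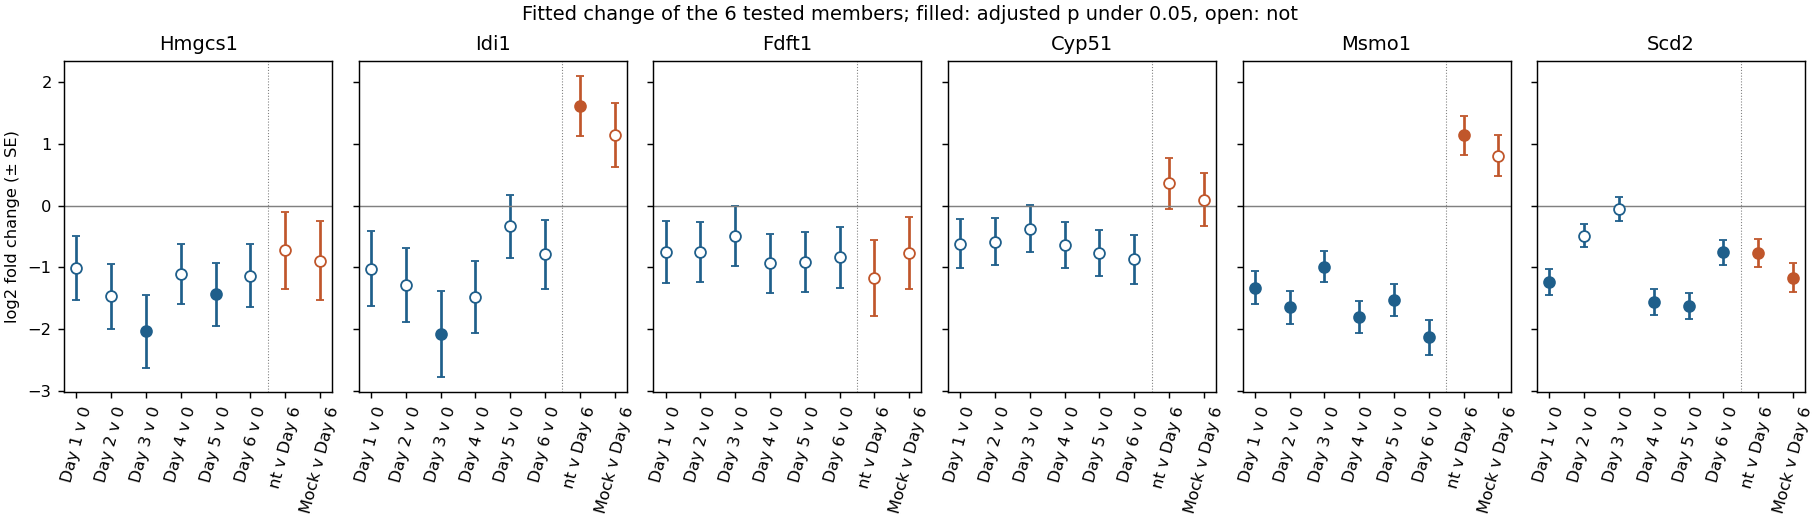
Fitted log2 fold change (± SE, edgeR) of the 6 tested members on days 1 to 6 against day 0 (blue) and of nt and Mock against day 6 (orange), with filled points where the adjusted p is under 0.05. Msmo1 is filled on every day, Scd2 returns to -0.06 at day 3, and Idi1 and Msmo1 lie above 0 in nt against day 6.

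Other readouts moved over the same days. The summed fibroblast markers were 5912 to 7390 CPM at Day00, 3347 to 3995 CPM at Day01 and 2440.5 to 3264 CPM at Day06. Of 7 epithelial and pluripotency markers, 5 had no count at Day00 and 2 had none at Day06, where their sum was 89.0 to 253 CPM. The 5 macrophage markers summed to 124.1 to 226 CPM at Day00, 45.8 to 68.3 CPM at Day01 and 18.1 to 89.0 CPM at Day06. This sum is mainly a readout of Lyz2, with 198 counts over all libraries against 7 to 14 for each of the others. Of the 5, 2 had no count at Day00 and 3 had none at Day06. The sum of the 6 adipocyte markers, some of them lipid-handling genes themselves, went the other way. It was 66.2 to 84.7 CPM at Day00, 147 to 182 CPM at Day01 and 164 to 181 CPM at Day06. It is mainly a readout of Lpl, with 764 counts over all libraries against 24 for Fabp4, the next. Of the 6, 5 had no count at Day06. The mitochondrial share of counts was 13.8% to 15.7% at Day00, 10.8% to 12.5% at Day01 and 16.4% to 17.8% at Day02. It was 19.7% to 22.6% at Day03, 19.9% to 20.8% at Day04, 20.4% to 21.5% at Day05 and 15.99% to 16.6% at Day06. The part of these in the member levels was not tested.

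The non-targeting control and the untransfected Day06 cells were compared to see how the members stand in transfected cells of the same nominal day. The sum was almost the same, 1283 ± 189 CPM in nt and 1329.9 ± 178 at Day06 (SD, n = 3 each), but its make-up was not. Idi1 held 250, 194 and 114 CPM in nt, from 15, 13 and 14 counts, and 89.0, 36.1 and 47.7 CPM at Day06, from 6, 2 and 7 counts. Each nt library was above each Day06 library, and the log2 fold change was 1.61 ± 0.49 (edgeR, adjusted p = 0.00786). Msmo1 held 316, 299 and 343 CPM in nt against 148, 108 and 157 CPM at Day06. These did not overlap either, with a log2 fold change of 1.14 ± 0.31 (adjusted p = 0.00339). Scd2 went the other way, with 416, 643 and 359 CPM in nt against 697, 958 and 709 CPM at Day06 and a log2 fold change of -0.76 ± 0.23 (adjusted p = 0.00648). Without Scd2, the sum of the other 8 was 810.1 ± 58.0 CPM in nt and 542 ± 77.5 CPM at Day06, a log2 ratio of 0.58, with no overlap. The Day06 libraries also stand in the comparison with Day00, so that a low Day06 value of Msmo1 enters both with opposite sign.

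In all, 3 of 6 tested members differed between nt and Day06, 2 higher and 1 lower, where 26.6% of all genes differed. The share of called genes that were higher was 58.6%, and 44.2% with RLE size factors, under which these 3 calls held. No call was left with limma on the deposited log2 values or without the low-count filter, and without pool 3 the call of Idi1 alone was left. Fdft1 was not called at -1.17 ± 0.62 (adjusted p = 0.150), nor Cyp51 at 0.36 ± 0.41 (adjusted p = 0.541). Nor was Hmgcs1, at -0.73 ± 0.62 (adjusted p = 0.404). Counting Idi1 together with its listed copies gave 196 ± 72.0 CPM in nt and 65.9 ± 20.0 CPM at Day06. The mitochondrial share was 22.8% to 26.3% in nt and 15.99% to 16.6% at Day06. The summed fibroblast markers were 1381 to 1665 CPM in nt and 2440.5 to 3264 CPM at Day06. The sum of the adipocyte markers, mainly Lpl, was 66.6 to 89.9 CPM in nt and 164 to 181 CPM at Day06. Their part in the result was not tested, and in nt against Day06 the siRNA, the reagent and the handling of the transfected cells cannot be told apart. The study placed its nt and mock controls between Day05 and Day06 of its time course by their transcriptomes. A difference in stage of reprogramming therefore cannot be told apart from these either.

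Mock libraries held 310, 137, 317, 248 and 269 CPM of Msmo1 and 310, 378, 317, 298 and 433 CPM of Scd2. The Mock libraries of Scd2 were all below the Day06 libraries, at -1.17 ± 0.23 on the log2 scale (edgeR, adjusted p = 1.73e-05). That was the 1 member called in Mock against Day06, where 28.9% of all genes were called, and with RLE size factors the median of all genes there moved from -0.14 to -0.25. Msmo1 was at 0.81 ± 0.33 (adjusted p = 0.0518) and Idi1 at 1.14 ± 0.52 (adjusted p = 0.0856) in that comparison. For Idi1 a single library sets the mean: Mock held 51.6, 34.3, 86.5, 49.6 and 284 CPM, and 55.5 ± 22.0 CPM (SD, n = 4) without the highest. Between Mock and nt, none of the 6 tested members was called by edgeR or had an unadjusted p under 0.05, where 1.56% of all genes were called. DESeq2 and limma called none. Without the low-count filter, edgeR called none of 9 members and gave 1 an unadjusted p under 0.05. The sum was 977 ± 228 CPM in Mock (SD, n = 5). Mock libraries were shallow, with 38925 to 83089 counts in all, against 75100 to 143156 in nt.

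The 33 siRNAs were compared with nt to ask which knockdowns moved the sterol genes. The siRNA targets themselves were poorly measured: 9 of the 33 passed the filter. Of these, 7 were fitted lower than nt and none was called lower. Pooled levels were under nt for 21 of the 33 targets, and 15 of the 33 had at most 3 counts in nt. Wdr5 had 2, 3 and 2 counts in the siWdr5 libraries and 2, 3 and 4 in nt, and Ncor1 had 4, 3 and 5 in siNcor1 and 2, 10 and 10 in nt. Prmt5 had 4, 5 and 8 counts in siPrmt5 and 8, 11 and 9 in nt, and Brca1 had 1, 1 and 2 in siBrca1 and 0, 1 and 1 in nt. In these libraries the labels therefore rest on the column names, not on the level of the target at day 6. The study itself measured Wdr5, Brca1 and Bard1 by RT-qPCR at day 3 and reported that each was strongly reduced by its siRNAs. It also tested the siRNAs of these genes singly by colony counts.

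Idi1 was lower than nt in siWdr5, siBrca1 and siNcor1, and Msmo1 was lower in siWdr5 and siPrmt5. Idi1 in siWdr5 held 66.0, 28.4 and 28.5 CPM, from 5, 2 and 3 counts, below every nt library. Its log2 fold change was -2.08 ± 0.53 (edgeR, adjusted p = 0.00111). In siBrca1 Idi1 held 103, 45.6 and 23.6 CPM, at -1.73 ± 0.55 (adjusted p = 0.0475), and in siNcor1 102, 62.8 and 20.0 CPM, at -1.71 ± 0.54 (adjusted p = 0.0382). Msmo1 in siWdr5 held 185, 199 and 94.9 CPM, at -1.08 ± 0.31 (adjusted p = 0.00521). In siPrmt5 it held 104, 227 and 105 CPM, at -1.25 ± 0.34 (adjusted p = 0.0348). In all 5 pairs, each siRNA library was lower than the nt library of its own pool. Wdr5 encodes a subunit of histone H3K4 methyltransferase complexes, Brca1 a DNA repair factor, Ncor1 a nuclear receptor corepressor and Prmt5 an arginine methyltransferase.

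**Figure D3:**
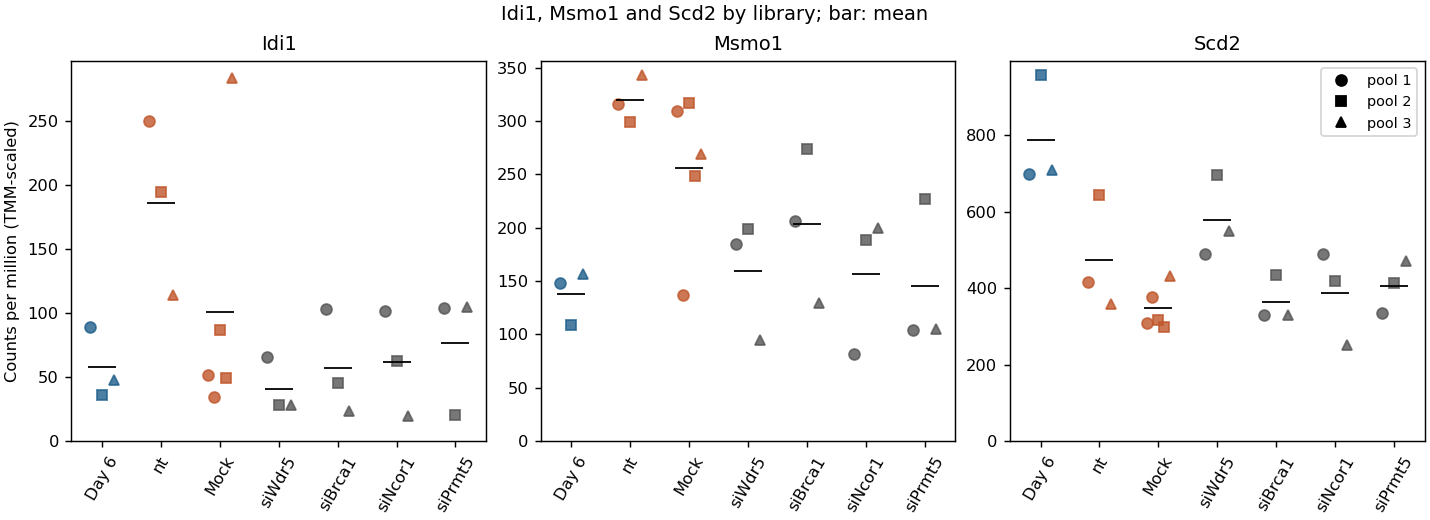
Level of Idi1, Msmo1 and Scd2 in TMM-scaled CPM in each library of day 6, nt, Mock and the 4 siRNAs with a called member, with the pool shown by the marker and the mean as a bar. Idi1 in siWdr5 lies at 28.4 to 66.0 CPM, below all 3 nt libraries, while Mock spans 34.3 to 284 CPM.

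These 5 were the only calls among 198 member-siRNA tests, where 2.57% of all 99429 gene-siRNA tests were called. By siRNA, 2 of 6 members were called in siWdr5 (27.2% of all genes), and 1 each in siBrca1 (4.22%), siNcor1 (4.45%) and siPrmt5 (0.896%). In siWdr5, 44.7% of the called genes were higher, and 60.9% with RLE size factors. All 33 comparisons share the 3 nt libraries, and the level of Idi1 in Mock overlapped each of these siRNAs. When nt and Mock were joined as the control, Idi1 was still lower in siWdr5 (-1.78 ± 0.50, adjusted p = 0.00249) and so was Msmo1 (-0.87 ± 0.29, adjusted p = 0.0124). Scd2 was then higher in siWdr5 (0.57 ± 0.21, adjusted p = 0.0236). The other 3 pairs were not called against that control, with adjusted p = 0.102 for Idi1 in siBrca1, 0.107 for Idi1 in siNcor1 and 0.0960 for Msmo1 in siPrmt5. Over all alternatives, the call of Idi1 in siNcor1 was lost in 7 of 9, with each pool left out among them, and that of Msmo1 in siPrmt5 in 6 of 9, without pool 1 (-1.14) and pool 3 (-0.89) among them. Without pool 3, the call of Msmo1 in siWdr5 was lost (-0.60), as it was with limma (-0.94) and without the low-count filter (-1.11), and the call of Idi1 in siBrca1 was lost in all 8 alternatives that gave a value. The summed fibroblast markers were 4411 to 4932 CPM in siWdr5, 2188 to 3058 CPM in siBrca1 and 2248 to 2687 CPM in siPrmt5, all above the 1381 to 1665 CPM of nt, while siNcor1 overlapped nt at 1191 to 1590.2 CPM. The epithelial and pluripotency markers summed to 26.4 to 71.1 CPM in siWdr5 and 98.0 to 250 CPM in nt, and overlapped nt in the other three. The mitochondrial share was 16.7% to 19.7% in siBrca1, below the 22.8% to 26.3% of nt. The adipocyte markers summed to 0 to 62.0 CPM in siBrca1, from 6 counts, below the 66.6 to 89.9 CPM of nt, and overlapped nt in siWdr5, siNcor1 and siPrmt5. By transcriptome, the study placed siWdr5 cells between Day03 and Day04 of its time course and siBrca1 cells between Day04 and Day05. The part of these readouts and of this stage in the result was not tested.

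Over the siRNAs, 142 of the 198 fitted values were under 0, and 38 had an unadjusted p under 0.05, each of them lower than nt. Of all 99429 gene-siRNA tests, 6505 were lower and 5967 higher at that p. With RLE size factors, 33 member tests were lower and 1 was higher, where 5456 of all tests were lower and 7104 higher. By gene, Idi1 and Cyp51 were under nt in 32 of 33 siRNAs each, Msmo1 in 27 and Scd2 in 26. Hmgcs1 was under nt in 14 and Fdft1 in 11. For all tested genes the share under nt was 51.0%. With both control groups joined, 122 of the 198 values were under 0, and 24 were lower and 2 higher at an unadjusted p under 0.05, where 6526 and 6490 of all tests were. For Scd2 the count went from 26 to 14 siRNAs under the control, for Idi1 from 32 to 27, for Msmo1 from 27 to 22 and for Cyp51 from 32 to 30. For Fdft1 it went up from 11 to 17. Since each siRNA is set against the same nt libraries, such a count also reads how high those libraries are.

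The mean sum of the 9 members ran from 757 CPM in siBrd8 to 1384 CPM in siTdrd7, with a median of 1009 CPM over the 33 siRNAs. It was under the nt mean in 32 of the 33. No siRNA had all its libraries outside the range of the nt and Mock libraries, which was 755 to 1481 CPM. From siBrd8 at 757 ± 140 CPM, the order went on through siKmt2e (806 ± 57.6), siBrca1 (817 ± 166), siNcor1 (827 ± 173), siPrmt7 (853 ± 78.8) and siPrmt5 (856 ± 114). At the other end stood siHdac1 (1264 ± 237), siPrkdc (1276 ± 250) and siTdrd7 (1384 ± 327). Each neighbouring pair in this order differed by less than the smaller of its SDs. Without Scd2, the order began with siWdr5 (432 ± 128), siNcor1 (441 ± 108), siPrmt5 (450.2 ± 46.8) and siBrca1 (452 ± 109), and its highest mean was that of siTdrd7 (949 ± 276). siWdr5 was thus the lowest without Scd2 and the 18th from below with it. Its Scd2 level of 579 ± 107 CPM was the highest mean of the 33.

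**Figure D4:**
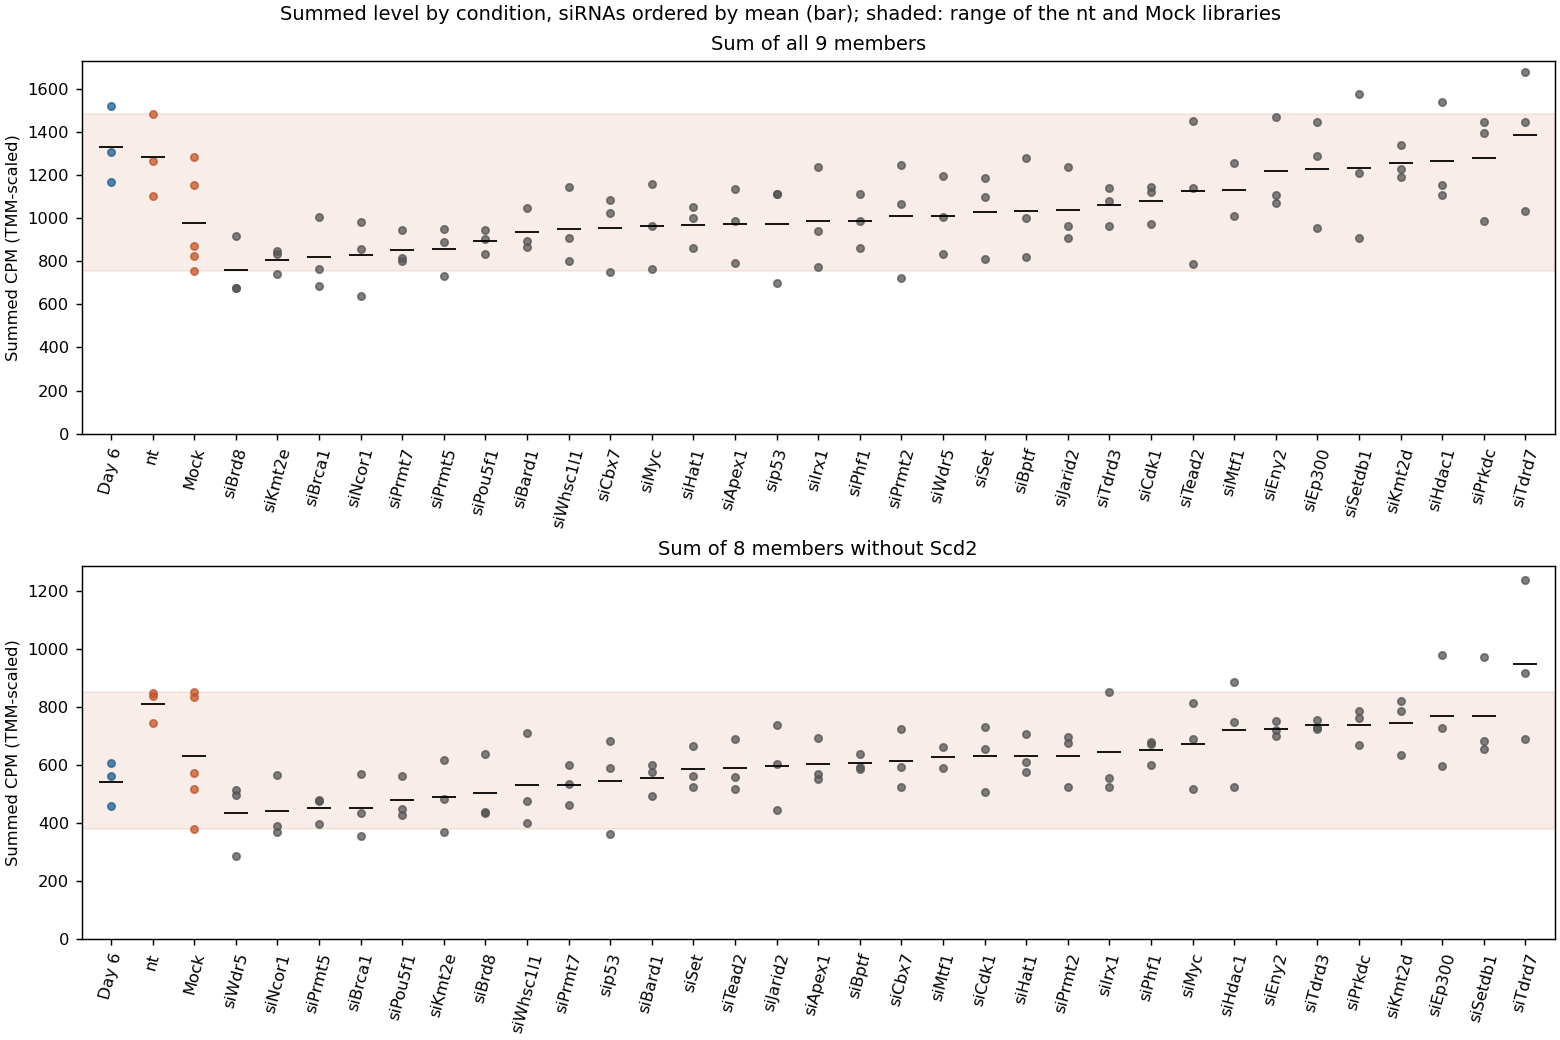
Summed level of all 9 members (top) and of the 8 without Scd2 (bottom) in TMM-scaled CPM for each library, with day 6 in blue, nt and Mock in orange and 32 siRNAs in grey, ordered by mean (bar). The shaded band is the range of the nt and Mock libraries, 755 to 1481 CPM in the top panel, and every siRNA shown has at least 1 library inside it.

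A few single pairs stood wholly outside the nt and Mock libraries: 3 of the 198 were below and 1 was above, against 2.77% of all gene-siRNA pairs. These were chosen after their values were seen. Cyp51 held 72.5, 55.5 and 30.2 CPM in siKmt2e and 66.4, 62.3 and 50.5 CPM in siCdk1, where nt held 183, 209 and 122.5 CPM. Neither was called, at -1.71 ± 0.53 (edgeR, adjusted p = 0.0848) and -1.46 ± 0.50 (adjusted p = 0.0818). Scd2 held 281, 238 and 243 CPM in siBrd8, at -0.83 ± 0.28 (adjusted p = 0.159). Msmo1 held 351, 528 and 428 CPM in siTdrd7, at 0.42 ± 0.27 (adjusted p = 0.908). Over all transfected conditions at once, Idi1 (adjusted p = 0.00752), Msmo1 (adjusted p = 0.000103) and Scd2 (adjusted p = 0.00592) differed, 3 of 6 members, where 45.1% of all genes did. Of these, Msmo1 kept its call in all 8 alternatives.

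The rest of the pathway was read from 6 lists of 57 further genes, of which 16 passed the filter. Among the sterol enzymes beyond squalene, Hsd17b7, a sterol ketoreductase, fell from 192 ± 39.3 CPM at Day00 to 61.3 ± 27.8 CPM at Day06 (log2 fold change -1.58 ± 0.52, edgeR adjusted p = 0.0164), a call lost in 4 of 7 alternatives, without pool 1 (-1.24) and pool 2 (-1.69) among them. Lbr, a sterol reductase that is also the lamin B receptor, differed over the 7 days (adjusted p = 0.0165). Of 9 further genes on this list, 3 were tested, and Hsd17b7 was the 1 called at Day06 against Day00. Of the 2 tested non-members of the mevalonate list and the 1 tested gene of sterol sensing, none was called in these comparisons.

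Among 19 further fatty acid genes, 7 were tested and 1 was called at Day06 against Day00. This was Me1, the malic enzyme that supplies NADPH, which went from 372 ± 8.68 CPM at Day00 to 69.9 ± 9.36 at Day01 and 47.7 ± 41.7 at Day06 (log2 fold change -2.58 ± 0.47, edgeR adjusted p = 2.26e-06). The call held with each pool left out, at -2.31, -2.24 and -3.91 without pools 1, 2 and 3. Scd1, the sister desaturase of Scd2, differed over the 7 days (adjusted p = 0.000920) but was at 158 ± 15.3 CPM at Day00, 210 ± 37.2 at Day01, 417 ± 82.4 at Day03 and 251.3 ± 42.7 at Day06. Its log2 fold change at Day01 was 0.37 ± 0.38 (adjusted p = 0.635), where that of Scd2 was -1.24. Scd1 was lower in Mock than at Day06 (-0.97 ± 0.35, adjusted p = 0.0268), a call lost in 6 of 9 alternatives and with any pool left out. The desaturase Fads1 differed over the 7 days (adjusted p = 0.000551). Hacd3, a dehydratase of fatty acid elongation, was lower in nt than at Day06 (-1.33 ± 0.45, adjusted p = 0.0195), a call lost without pool 3 (-0.65). Of 10 uptake and transport genes, 2 were tested. Npc2, which carries cholesterol out of lysosomes, was lower at Day06 than at Day00 (-0.91 ± 0.20, adjusted p = 0.000168) and differed over the transfected conditions (adjusted p = 1.94e-05). Soat1, which esterifies cholesterol, was lower in nt than at Day06 (-1.81 ± 0.54, adjusted p = 0.00726), a call lost without pool 3 (-1.47), and also differed over the transfected conditions (adjusted p = 0.0343). The 1 tested gene of sterol efflux was not called in these comparisons.

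Likeness of pattern was read from condition means of log2 CPM (prior count of 2, pool means removed) over the 42 conditions, and is a description in which all points share the sequenced pools. The genes outside the 9 with the highest correlation to the sum were Prss35 (r = 0.78), Ilf2 (0.77), Me1 (0.77), Atp1b1 (0.77) and Hsph1 (0.76). The sum follows Scd2, which had r = 0.86 with it, while Idi1 had r = -0.04. With the 8 members other than Scd2, the nearest genes were Me1 (0.67), Tes (0.61) and Ptgs2 (0.59), and Msmo1 had r = 0.83 with this sum, to which it contributes most. Between members, r ran from -0.37 for Scd2 with Idi1 to 0.59 for Scd2 with Fdft1 over the 42 conditions. Over the 33 siRNAs alone it ran from -0.06 for Scd2 with Idi1 to 0.41 for Msmo1 with Idi1. At a median of 3 to 25 counts per library, weak correlations between single members say little.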

How the data were processed

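Bulk CEL-Seq2 libraries of reprogramming mouse fibroblasts were read from the deposited gene counts, in which each UMI counts once. According to the methods, the authors aligned reads with Bowtie2 to mm10 and counted them with the CEL-Seq pipeline on a GENCODE annotation. They also deposited log2 values for 10568 genes, filtered with scater, scaled by size factors of scran and regressed for batch, which served as an alternative. Whether counting used the strand is not given in the sources used here. A count of a 3′ end does not scale with transcript length. Each library took its condition from its column name, and its pool (replicate 1 to 3) from the pool in which it was sequenced. Of 129 libraries, 127 were used, and 2 with 6403 and 7981 counts, which have no column among the log2 values, were left out. The median total was 73279 counts. Intervals and floors (3 counts over the group) cover counting error only.

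Counts were filtered by condition (filterByExpr), scaled by TMM and tested with the quasi-likelihood F-test of edgeR 4.0.16 (R 4.3.3) in 1 fit over all 127 libraries, with condition and pool as terms and 83 residual degrees of freedom. P-values were adjusted by Benjamini-Hochberg over the 3013 tested genes within each comparison, with a threshold of 0.05. The SE is the log2 fold change divided by the root of F. The scripts were tested on simulated data. Alternatives were RLE size factors, no low-count filter, no pool term, each pool left out, the compared conditions alone, nt and Mock together as control, DESeq2 1.42.0, and limma 3.58.1 on the log2 values. Libraries of the same pool deviated together, with a median correlation of 0.0981 against -0.0685 between pools, so the pool term was kept. All 9 members were described, further genes of the 6 pathway lists were named where the test over the 7 days, Day06 against Day00, nt against Day06 or the test over the transfected conditions called them, the 5 genes most like the sum were named by correlation, and members and lists were chosen with earlier results of these data known. A few genes and 1 siRNA are not reported here.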

Additional observations from a re-analysis of the deposited data

Results flagged for a closer look

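In the Mock group, the library with the highest Idi1 level stood apart at 283.607 CPM, with the next at 86.4754 CPM, a gap of 0.791 of the whole range of the group. The same group held 1 library with Fdps at 28.8251 CPM, which is 1 count, and 4 libraries at 0. With a single count in the group such a gap is fixed in advance, so it says nothing about that library. Of 11 groups of member levels tested for a sample far from the others, these 2 stood out, and chance alone marks about 1 in 20 groups of continuous values, a rate that does not apply to Fdps.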

How the results depend on the processing

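Counts of called members that changed by more than 1.5 times are given below. The range with a pool left out is given beside them, whether or not it changed as much. For Day06 against Day00 (2 members), 4 were called with RLE size factors and 1 each without the low-count filter, with limma and without the replicate block, and 1 to 3 with a pool left out. For Day01 to Day05 against Day00 (11 calls), 7 were called without the filter and 7 with limma, and 8 to 10 with a pool left out. For daily steps (6 calls), 3 were called without the filter, 1 with limma, 3 without the replicate block and 2 to 4 with a pool left out. For nt against Day06 (3 members), 0 were called without the filter (edgeR, 3 of 9 at an unadjusted p under 0.05) and 0 with limma (4 of 8), and 1 to 3 with a pool left out. For Mock against Day06 (1 member), 1 to 2 were called with a pool left out. For siRNAs against nt (5 pairs), 1 was called without the filter, 0 with limma (23 of 264 unadjusted), 2 without the replicate block, 3 with nt and Mock together and 2 to 3 with a pool left out. Over the transfected conditions (3 members), 1 was called with limma, 1 without the replicate block and 1 to 4 with a pool left out. Over the 7 days (3 members), 2 to 3 were called with a pool left out, which is not a change of more than 1.5 times.

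The log2 ratio of the sum at Day06 to Day00 was -1.02, and -1.39 without Scd2. That of nt to Day06 was -0.05, moved to -0.19 with RLE and to -0.35 with unscaled totals, and reversed to 0.58 without Scd2. The number of siRNAs with a mean sum under nt (32) was 28 to 31 with a pool left out. No called fold change of a named gene reversed under the alternatives run, while member-siRNA values that were not called did change sign with nt and Mock joined. Low counts limit Idi1, Hmgcs1, Fdft1 and the untested Sqle, Insig1 and Fdps.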
